A study of Mus musculus with 2 samples.

Results

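The 9 genes described here, of 22444 genes measured in both batches, act in the uptake, carriage, storage and synthesis of lipid. They were chosen by name, and the counts were read from their rows: Lpl, Cd36, Fabp4, Fabp5, Plin2, Scd1, Fasn, Srebf1 and Pparg. All 9 had rows in both count matrices. The study profiled dissociated whole lung of newborn mice at postnatal day 1 (PND1) by Drop-seq, a droplet method in which every captured transcript is tagged for its cell of origin and with a unique molecular identifier (UMI), so that copies made by PCR are counted once. Batch 1 and Batch 2 each came from 1 wild-type C57BL/6J mouse, female per the study's methods, with red blood cells lysed after dissociation. No treatment, genotype or age was compared, so the question asked of the data is in which cells of the newborn lung these genes were expressed. A batch is a mouse as well as a capture and a library, and these cannot be told apart.

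Around birth, alveolar type 2 (AT2) cells produce surfactant, which is mostly phospholipid, and they obtain its fatty acids by their own synthesis and by uptake. Lipoprotein lipase on the wall of capillaries releases fatty acids from circulating triglyceride, CD36 takes long-chain fatty acids into cells, and small fatty acid binding proteins carry them in the cytoplasm. Surplus fatty acid is kept as triglyceride in droplets coated by perilipins, for which lipid-bearing fibroblasts beside AT2 cells and macrophages are known. The synthesis genes are targets of the sterol regulatory element binding proteins, and several uptake and storage genes are targets of the nuclear receptor PPARG.

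After cells with over 10% mitochondrial UMIs were left out, 2388 cells and 4432553 UMIs remained in Batch 1 and 5615 cells and 18232639 UMIs in Batch 2, with a median of 1386.5 and 2014 UMIs per cell, and 0 cell barcodes were shared. Clusters were named from marker genes and held 754 and 1267 matrix fibroblasts, 193 and 735 AT2 cells, 414 and 1110 vascular endothelial cells and 43 and 73 macrophages in Batch 1 and Batch 2. The 9 genes and the other listed lipid genes were not used for clustering. In both batches, 9 of the 10 MatrixFB-1 markers in the matrix fibroblasts, and all listed AT2, vascular and macrophage markers in their classes, were at least 2-fold above their level in all cells. Genes of AT2 and red cells were found in every population. The AT2 gene Sftpc was found in 44.8% and 79.5% of matrix fibroblasts at median depths of 1387 and 1727 UMIs, at 0.386% and 1.58% of its AT2 level. The red cell gene Hba-a1 was at 105 and 20.6 UMIs per 10000 in matrix fibroblasts, and at 79.9 to 140 in Batch 1 and 13.5 to 18.0 in Batch 2 in the other 3 populations. The AT2 class of Batch 1 also held the club cell gene Scgb1a1 at 38.8 UMIs per 10000 in 16.6% of its cells, but 831 of the 1844 UMIs came from 1 cell. In Batch 2 the gene was at 2.50 in 54.3% of AT2 cells. With each cell thinned to the same number of UMIs, the shares of AT2 cells were 7.77% in Batch 1 and 15.2% in Batch 2. The part of Scgb1a1-bearing cells in the AT2 values was not tested. Of the 101 Batch 1 cells that the authors' list, as far as it was used here, calls macrophages, 35 fell in the macrophage class and 65 in unnamed clusters, so macrophage values are given both ways where they differ. The unnamed myeloid clusters of Batch 1, of 50 and 31 cells, scored highest for monocyte and for neutrophil markers. How many of the 65 cells lay in each is not given here.

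Each gene had its own distribution over the 4 populations. The level of a gene is its UMIs per 10000 UMIs of the cells of a population, and the parentheses after a level give the exact Poisson 95% interval, which covers counting error only. Scd1, Fasn and Srebf1 were highest in AT2 cells, Cd36 in vascular endothelium, and Plin2 and Fabp4 in macrophages in both batches. With the Batch 1 cells listed by the authors, Fabp4 was instead higher in vascular endothelium (1.38) than in macrophages (0.416). Lpl was highest in macrophages in Batch 1 and in vascular endothelium in Batch 2, and Fabp5 in AT2 cells in Batch 1 and in macrophages in Batch 2. Pparg was near the limit of detection, with 13 and 58 UMIs in all kept cells. Matrix fibroblasts were not the highest of the 4 populations for any of the 9 genes in either batch.

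**Figure D1:**
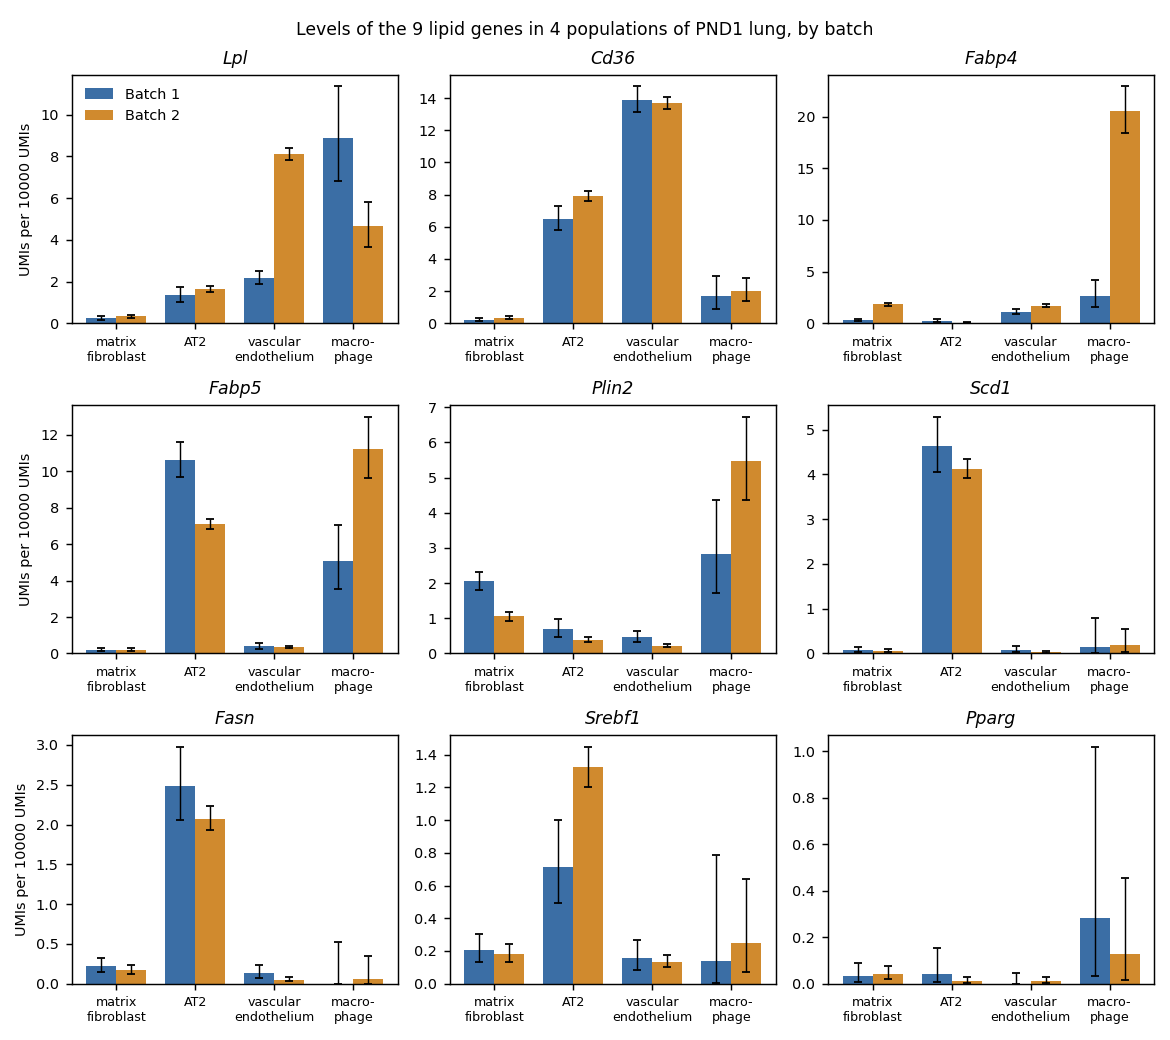
Levels of the 9 genes in matrix fibroblasts, AT2 cells, vascular endothelium and macrophages. Bars give UMIs per 10000 UMIs on a linear axis from 0, by batch, and error bars the exact Poisson 95% interval. Scd1, Fasn and Srebf1 stand out in AT2 cells in both batches, and the Batch 2 bar of Fabp4 in macrophages reaches 20.6 against 2.68 in Batch 1.

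Counts summed per population and batch were compared in 1 fit of 24 sums from 12 named classes, by edgeR's quasi-likelihood test with batch as a block and Benjamini-Hochberg adjustment over 7201 genes. All classes share 1 estimate of the spread, from 2 mice. The standard errors and adjusted p thus do not measure the spread between mice of the compared populations alone. The 8 members other than Pparg passed its filter on low counts. A gene high in 1 population can pass this filter through that population alone. Scd1, Fasn and Srebf1 had levels of at least 0.716 in AT2 cells and of 0.251 or less in the other 3 populations. The filter may thus have kept these genes because they were high in AT2 cells. Their calls as higher in AT2 cells also passed without the filter. Against matrix fibroblasts, 6 members were higher in AT2 cells and 1 was lower at an adjusted p under 0.05, where 27% of all genes passed (13.3% higher and 13.7% lower). Against vascular endothelium, 4 members were higher in AT2 cells and 1 was lower, with 30.2% of all genes past the threshold (16.1% and 14.1%). Against macrophages, 4 were higher in AT2 cells and 3 lower, with 23.7% of all genes (13.1% and 10.7%). Matrix fibroblasts exceeded vascular endothelium in 2 members and fell below it in 2, where 24.8% of all genes passed (13% and 11.8%). They were below macrophages in 5 members and above in 0, where 24.4% passed (13.3% higher and 11.1% lower in matrix fibroblasts). Vascular endothelium was above macrophages in 1 member and below in 3, where 19.7% passed (10.1% and 9.61%). The median log2 difference of the 8 members was 3.33 for AT2 cells against matrix fibroblasts and -2.02 for matrix fibroblasts against macrophages, beside -0.05 and 0.28 over all genes tested.

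Over these 6 comparisons and 3 further ones within the fibroblasts and the endothelium, 35 of 72 differences passed the threshold. Of all genes, 19.7% to 30.2% passed in each of the 6 and 0.0227% to 9.04% in each of the 3. All 35 had the same sign in both batches, which is no separate support, since the fit used these same 2 batches. Of the 35, 29 passed under every alternative in which they were tested. These alternatives were 7 for each member but Srebf1, which had 6, since it was not tested at the stricter mitochondrial limit. The 29 include the Srebf1 calls. Each batch alone gave differences without a test and is not among these alternatives. The comparisons share populations and are not independent. Scaling by library size in place of TMM moved the median of all genes by -0.33, -0.51 and -0.48 (log2) in the comparisons of AT2 cells with matrix fibroblasts, vascular endothelium and macrophages, and lowered the share of calls that were higher in AT2 cells from 49.2% to 35.0%, from 53.2% to 30.0% and from 55.1% to 32.3%. It moved the median by -0.18 and -0.16 for matrix fibroblasts against vascular endothelium and macrophages, and by 0.12 for lymphatic against vascular endothelium. No member difference past the threshold changed sign under it.

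**Figure D2:**
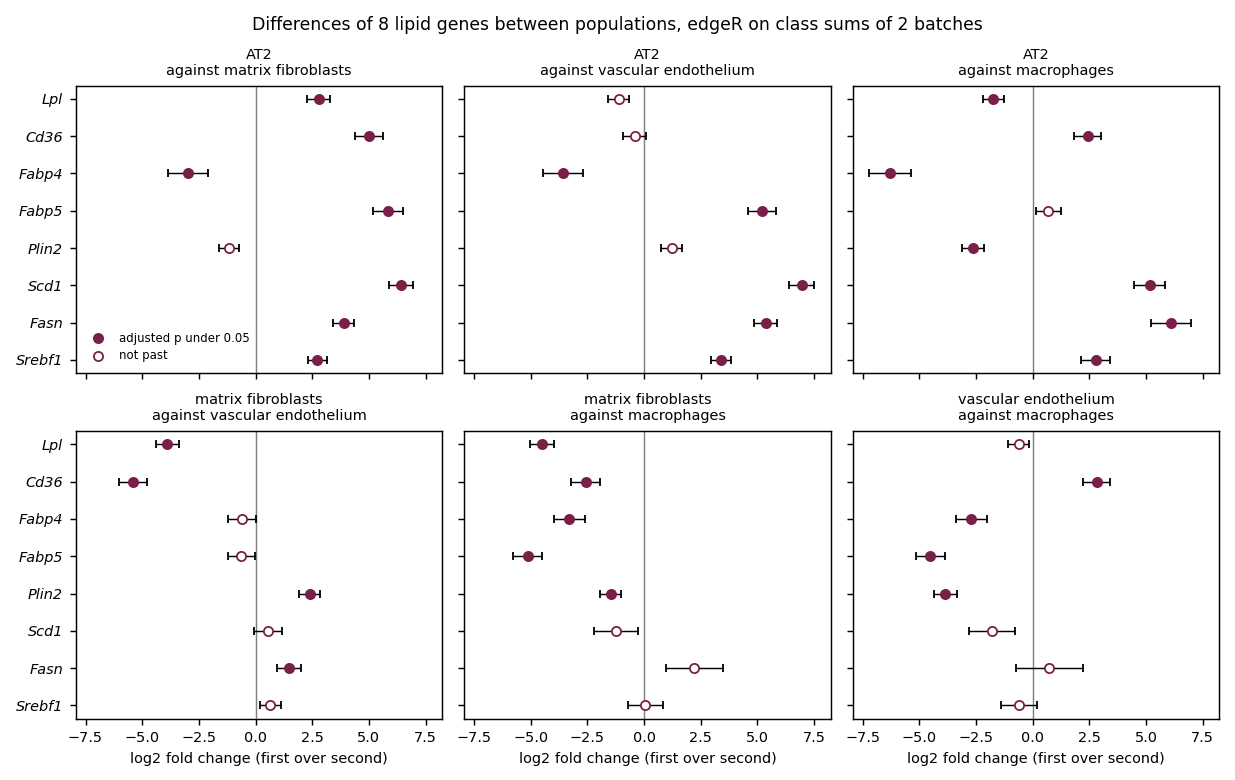
Log2 fold changes of 8 members in the 6 comparisons of populations, from edgeR on sums of 2 batches. Points give the fitted difference, first population over second, bars 1 standard error, and filled points an adjusted p under 0.05. In the comparison of AT2 cells with matrix fibroblasts, Fabp4 is the only filled point to the left of 0.

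Cd36 encodes a membrane receptor for long-chain fatty acids and lies on chromosome 5 from 17781690 to 17888801 (GRCm38, minus strand, as given by GENCODE). Its level in vascular endothelium was 13.9 (13.1 to 14.7) in Batch 1 and 13.7 (13.3 to 14.0) in Batch 2. In AT2 cells it was 6.51 and 7.92, in macrophages 1.69 and 2.01, and in matrix fibroblasts 0.205 and 0.347. The order of the 4 populations was the same in both batches, and the intervals of the first and the second did not overlap. Of vascular endothelial cells, 76.6% and 82.9% had at least 1 Cd36 UMI, as did 63.7% and 82.9% of AT2 cells at median depths of 1424 and 2179.5 against 2112 and 3662 UMIs. With each cell thinned to 600 UMIs, the shares were 52.9% and 50.5% of vascular endothelial cells and 33.2% and 34.4% of AT2 cells. The fitted difference of AT2 cells from vascular endothelium was -0.41 ± 0.51 (SE, adjusted p = 0.612, edgeR), and -0.94 with library size scaling, so the lower AT2 level did not pass the test. Both populations exceeded matrix fibroblasts, AT2 cells by 5.01 ± 0.61 (adjusted p = 7.76e-07) and vascular endothelium by 5.41 ± 0.62 on the log2 scale (adjusted p = 4.51e-07).

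Lpl encodes lipoprotein lipase, which is secreted and acts on the luminal face of capillaries, and lies on chromosome 8 from 68880491 to 68907448 (plus strand). In vascular endothelium its level was 2.16 (1.86 to 2.50) in Batch 1 and 8.11 (7.83 to 8.40) in Batch 2, 3.75 times higher. In macrophages it was 8.88 (6.82 to 11.4) and 4.64 (3.65 to 5.83), so the populations changed places between batches. With the cells listed as macrophages by the authors, the Batch 1 level of macrophages was 3.44. In AT2 cells it was 1.35 and 1.65, and in matrix fibroblasts 0.231 and 0.331. Shares of cells with Lpl in Batch 2 were 63.4% of vascular endothelial cells, 40.5% of AT2 cells, 32.9% of macrophages and 5.13% of matrix fibroblasts, and 33.6%, 8.84%, 16.4% and 2.05% after thinning. Beside the share in matrix fibroblasts, pericytes had 5.70% (median depth 1715 UMIs) and smooth muscle cells 5.92% (1629 UMIs), and in Batch 1 the shares in the 3 were 2.92%, 1.54% and 3.33%. The part of free RNA in these shares was not tested. Of B lymphocytes in Batch 2, 0 of 39 had Lpl, which allows a share of up to 7.69%.

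Between vascular endothelium and macrophages, the Lpl difference did not pass (-0.61 ± 0.47, adjusted p = 0.430, edgeR), and it was -2.02 in Batch 1 and 0.80 in Batch 2. Vascular endothelium was above matrix fibroblasts by 3.90 ± 0.50 on the log2 scale (adjusted p = 2.84e-06). AT2 cells were above matrix fibroblasts by 2.78 ± 0.49 (adjusted p = 0.000118) and below macrophages by 1.73 ± 0.48 (adjusted p = 0.0101). The last call was lost without the block (adjusted p = 0.0699), and the difference was 2.69 in Batch 1 and 1.47 in Batch 2. AT2 cells against vascular endothelium gave -1.12 ± 0.45 (adjusted p = 0.0660), which passed with library size scaling, without the filter and with the 3 clusters that the naming rule had left out.

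Fabp4 and Fabp5 encode small cytoplasmic carriers of fatty acids, known respectively as the adipocyte and the epidermal form, and are neighbours on chromosome 3 (Fabp4 from 10204088 to 10208576 on the minus strand, Fabp5 from 10012548 to 10016607 on the plus strand). Their distributions differed. Fabp5 in AT2 cells was at 10.6 (9.71 to 11.6) and 7.11 (6.83 to 7.39), and in macrophages at 5.07 (3.55 to 7.03) and 11.2 (9.64 to 13.001), while vascular endothelium had 0.392 and 0.336 and matrix fibroblasts 0.197 and 0.215. AT2 cells and macrophages thus stood in opposite order in the batches, and with the authors' listed macrophages the Batch 1 level was 1.42. After thinning, Fabp5 was found in 44.0% and 33.2% of AT2 cells and in 20.9% and 34.2% of macrophages (78.2%, 76.7%, 30.2% and 58.9% before). AT2 cells exceeded matrix fibroblasts by 5.83 ± 0.65 (log2, adjusted p = 2.16e-07, edgeR) and vascular endothelium by 5.20 ± 0.63 (adjusted p = 7.87e-07). Macrophages exceeded matrix fibroblasts and vascular endothelium too, by 5.14 ± 0.64 and 4.51 ± 0.62 on the log2 scale. Against each other, AT2 cells and macrophages differed by 0.69 ± 0.54 (adjusted p = 0.398), 1.06 in Batch 1 and -0.66 in Batch 2.

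Fabp4 differed most between batches. In macrophages it was at 2.68 (1.61 to 4.18) in Batch 1 and 20.6 (18.4 to 22.9) in Batch 2, and at 0.416 in the Batch 1 cells that the authors' list calls macrophages. In matrix fibroblasts it was at 0.291 (0.202 to 0.407) and 1.83 (1.66 to 2.01), 6.28 times higher in Batch 2, and in vascular endothelium at 1.09 and 1.71. AT2 cells had the lowest level of the 4, 0.211 and 0.0546. In Batch 2, 17.2% of matrix fibroblasts had Fabp4 at a median depth of 1727 UMIs, against 2.45% of AT2 cells at 3662 UMIs and 0.633% of pericytes, and 8.05% and 0.408% of matrix fibroblasts and AT2 cells had it after thinning. In Batch 1 the share in matrix fibroblasts was 3.45%, beside 2.59% of AT2 cells, with overlapping intervals. In vascular endothelium the UMIs came from few cells: 77 of 1110 cells had all 654 UMIs of Batch 2, and 1 cell had 170 of them.

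By edgeR, Fabp4 was higher in macrophages than in AT2 cells by 6.28 ± 0.92 (log2, adjusted p = 2.31e-05), than in matrix fibroblasts by 3.30 ± 0.67 (adjusted p = 0.000794) and than in vascular endothelium by 2.70 ± 0.68 (adjusted p = 0.00543). It was lower in AT2 cells than in matrix fibroblasts by 2.98 ± 0.89 (adjusted p = 0.0137) and than in vascular endothelium by 3.57 ± 0.89 (adjusted p = 0.00290). Matrix fibroblasts were above AT2 cells by 0.41 in Batch 1 alone and by 4.44 in Batch 2 alone, and the call was lost without the block (adjusted p = 0.0696) and in DESeq2 (adjusted p = 0.226). DESeq2 also lost the differences of AT2 cells and of macrophages from vascular endothelium, which were 2.22 and 1.27 in Batch 1 and 4.35 and 3.57 in Batch 2, with AT2 cells lower and macrophages higher. With the authors' listed cells the Batch 1 order of macrophages and vascular endothelium turned, at 0.416 and 1.38. Outside the 4 populations, smooth muscle cells had Fabp4 at 0.878 (0.439 to 1.57) in Batch 1 and 7.76 (7.06 to 8.52) in Batch 2.

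Plin2 encodes a coat protein of lipid droplets found in many cell types, and lies on chromosome 4 from 86648386 to 86670060 (minus strand). In macrophages its level was 2.82 (1.72 to 4.35) in Batch 1 and 5.46 (4.37 to 6.73) in Batch 2, and in matrix fibroblasts 2.05 (1.80 to 2.32) and 1.05 (0.929 to 1.19). AT2 cells had 0.695 and 0.397, and vascular endothelium 0.475 and 0.219. The order macrophages, matrix fibroblasts, AT2 cells, vascular endothelium was the same in both batches, but in Batch 1 the intervals of macrophages and matrix fibroblasts overlapped. Of matrix fibroblasts, 24.1% and 16.3% had a Plin2 UMI, and 9.42% and 5.76% after thinning, against 14.0% and 14.8% of AT2 cells (2.59% and 1.90% after thinning) and 8.21% and 6.40% of vascular endothelial cells (3.86% and 0.901%). Few cells had more than 1 UMI: 35 of 754 and 40 of 1267 matrix fibroblasts had at least 2, and the most in 1 cell was 5.

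Matrix fibroblasts exceeded vascular endothelium in Plin2 by 2.38 ± 0.47 (log2, adjusted p = 0.000316, edgeR), by 2.04 in Batch 1 and 2.12 in Batch 2. Against AT2 cells the difference was -1.17 ± 0.46 (AT2 cells lower, adjusted p = 0.0605), which passed with library size scaling and without the filter. Macrophages exceeded AT2 cells by 2.64 ± 0.49 (adjusted p = 0.000304), vascular endothelium by 3.85 ± 0.51 (adjusted p = 5.35e-06) and matrix fibroblasts by 1.47 ± 0.46 (adjusted p = 0.0223). This last call was lost without the block (adjusted p = 0.137) and without the filter, and the difference was 0.46 in Batch 1 and 2.34 in Batch 2. With the authors' listed cells the Batch 1 levels of macrophages and matrix fibroblasts were 1.90 and 1.88.

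Fasn encodes fatty acid synthase, which makes palmitate, and Srebf1 a transcription factor of the genes of fatty acid synthesis. They lie on chromosome 11, Fasn from 120805846 to 120824547 and Srebf1 from 60199089 to 60222581, both on the minus strand. The promoter windows of these genes, highest in AT2 cells in both batches, are shown from 250 bases before to 50 bases after the start (RefSeq, GRCm38.p6, 5′ to 3′ on the gene's strand), chr11:120824498-120824797 for Fasn and chr11:60222532-60222831 for the first of 3 Srebf1 starts. Capitals mark matches of the CCAAT box, CCAAT or ATTGG on the shown strand, and in Fasn 2 of the matches overlap.
Fasn: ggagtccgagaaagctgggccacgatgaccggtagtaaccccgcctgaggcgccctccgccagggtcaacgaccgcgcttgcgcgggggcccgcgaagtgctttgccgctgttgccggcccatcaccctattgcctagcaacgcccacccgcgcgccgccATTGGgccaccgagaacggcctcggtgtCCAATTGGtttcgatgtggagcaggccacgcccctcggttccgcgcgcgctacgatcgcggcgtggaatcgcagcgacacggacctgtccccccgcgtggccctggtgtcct
Srebf1: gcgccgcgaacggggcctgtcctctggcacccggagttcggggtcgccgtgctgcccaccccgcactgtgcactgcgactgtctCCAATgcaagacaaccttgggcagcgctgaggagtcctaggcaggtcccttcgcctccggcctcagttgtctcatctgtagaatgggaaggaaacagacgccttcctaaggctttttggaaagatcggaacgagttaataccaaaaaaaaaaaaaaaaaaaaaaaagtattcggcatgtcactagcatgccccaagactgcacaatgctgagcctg
The Fasn window held 3 matches, starting 90, 62 and 59 bases before the start, and the Srebf1 window 1, while 37.4% of all 32851 promoter windows held at least 1. Neither window held the E-box CACGTG (7.15% of windows) or the core of the sterol element, TCACNCCAC (1.24%), on either strand. A match is a run of letters and not a binding site, and the counts do not tell which start is used.

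Scd1 encodes stearoyl-CoA desaturase, which turns saturated into monounsaturated fatty acids, and lies on chromosome 19 from 44394455 to 44407879 (minus strand). AT2 cells had Scd1 at 4.63 (4.04 to 5.29) in Batch 1 and at 4.12 (3.91 to 4.34) in Batch 2. The other populations were at 0.188 or less in both batches, with 1 and 3 UMIs in macrophages. In matrix fibroblasts Scd1 was at 1.48% and 1.50% of its AT2 level, and in vascular endothelium at 1.80% and 0.886%, where Sftpc was at 0.386% and 1.58% and at 0.962% and 0.942%. In both of these populations in Batch 2, and in the vascular endothelium of Batch 1, the interval of the Scd1 share included that of Sftpc. In that endothelium of Batch 1, 251 of the 972 Sftpc UMIs came from 1 cell. In the matrix fibroblasts of Batch 1 the Scd1 interval did not include that of Sftpc (0.638 to 2.91%, from 8 UMIs in 5 cells). The part of free RNA in these Scd1 levels was not tested. Scd1 was found in 47.2% and 59.9% of AT2 cells, and in 20.2% and 19.9% after thinning. The fitted difference was 6.40 ± 0.54 against matrix fibroblasts (log2, adjusted p = 8.57e-09, edgeR), 6.94 ± 0.56 against vascular endothelium (adjusted p = 4.53e-09) and 5.16 ± 0.67 against macrophages (adjusted p = 4.47e-06). Scd1 has a related copy on the same chromosome, Scd2, and since each read was kept at 1 position, reads alike in both may have been placed in either.

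**Figure D3:**
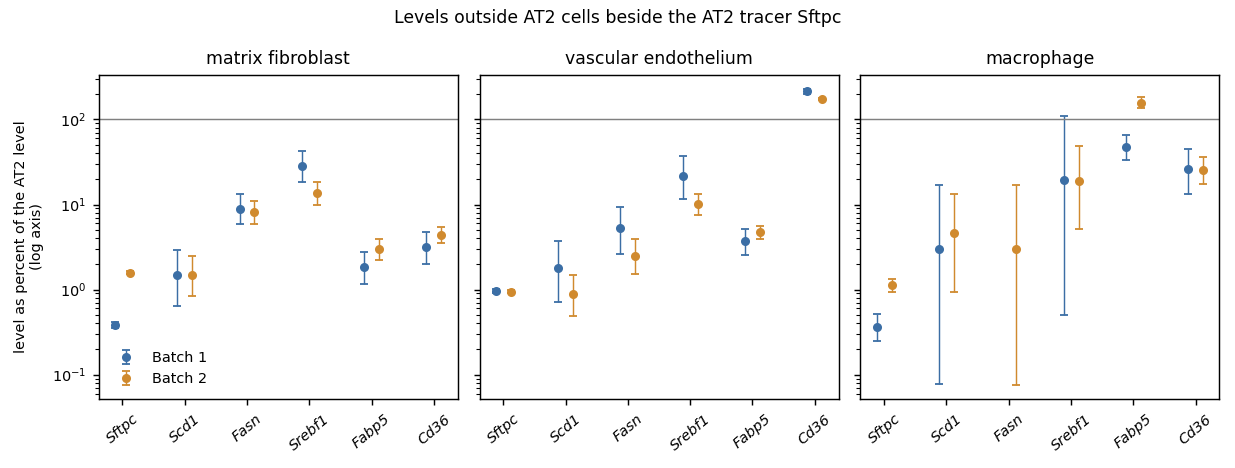
Levels of 5 members and of Sftpc outside AT2 cells, as a percent of the AT2 level of the same batch on a log axis, with intervals from the exact Poisson interval of the count. The line marks 100%, Sftpc is the tracer of AT2 RNA, and Fasn in Batch 1 macrophages, at 0 UMIs, has no point. Scd1 lies near Sftpc in matrix fibroblasts and vascular endothelium in Batch 2, while Srebf1 lies above it in both batches.

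Fasn was at 2.49 (2.06 to 2.98) and 2.07 (1.93 to 2.23) in AT2 cells and was found in 40.4% and 47.2% of them (13.5% and 12.0% after thinning). Matrix fibroblasts had 0.223 and 0.169, vascular endothelium 0.131 and 0.0521, and macrophages 0 UMIs in Batch 1 and 1 UMI in Batch 2. In matrix fibroblasts this was 8.95% (5.85 to 13.1%) and 8.17% (5.86 to 11.1%) of the AT2 level, above the share of Sftpc in both batches. AT2 cells exceeded matrix fibroblasts by 3.89 ± 0.46 (log2, adjusted p = 4.03e-07, edgeR), vascular endothelium by 5.36 ± 0.51 (adjusted p = 2.88e-08) and macrophages by 6.10 ± 0.88 (adjusted p = 1.64e-05). The last value depends on the prior count, since macrophages held 1 UMI in all. Matrix fibroblasts exceeded vascular endothelium by 1.47 ± 0.51 (adjusted p = 0.0367), a call lost without the block (adjusted p = 0.131), with library size scaling and at the 5% mitochondrial limit.

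Srebf1 in AT2 cells was at 0.716 (0.496 to 1.00) in Batch 1 and 1.32 (1.20 to 1.45) in Batch 2, 1.85 times higher, and was found in 15.0% and 37.96% of cells (3.63% and 8.98% after thinning). Matrix fibroblasts had 0.205 and 0.182, vascular endothelium 0.155 and 0.133, and macrophages 0.141 and 0.251 from 1 and 4 UMIs. The matrix fibroblast level was 28.7% (18.4 to 42.7%) and 13.8% (10.0 to 18.5%) of the AT2 level. The 3 populations other than AT2 cells did not differ past the threshold in any pair. AT2 cells exceeded matrix fibroblasts by 2.73 ± 0.42 (log2, adjusted p = 1.87e-05, edgeR; 1.66 in Batch 1 and 2.67 in Batch 2), vascular endothelium by 3.38 ± 0.44 (adjusted p = 2.29e-06; 2.01 and 3.05) and macrophages by 2.79 ± 0.65 (adjusted p = 0.00241).

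Pparg, on chromosome 6 from 115360951 to 115490399 (plus strand), encodes the nuclear receptor known for driving fat cell formation and the maturation of alveolar macrophages. It had 4 and 10 UMIs in matrix fibroblasts, 2 and 4 in AT2 cells, 0 and 4 in vascular endothelium and 2 and 2 in macrophages. The 0 UMIs in the vascular endothelium of Batch 1 allow a level of up to 0.0357. Levels were at most 0.0421 except in macrophages, at 0.282 (0.0341 to 1.02) and 0.125 (0.0152 to 0.453), and the intervals of macrophages and the next population overlapped in both batches. A difference between these populations was not detectable at this depth, and Pparg did not pass the filter for testing. Of the 58 UMIs of Batch 2, 19 fell in 1 unnamed myeloid cluster of 137 cells led by Ear2, Mpeg1 and Ctss, at a level of 0.755, in which Plin2 was at 3.54 and Fabp4 at 1.15. This cluster scored highest for macrophage markers (1.09, beside 0.74 for monocyte markers) and stayed unnamed because the margin was under 0.5. It was singled out after its values were seen.

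Macrophages fell into clusters of unlike lipid gene content, described here without a test since they were clusters of the same cells. In each batch one cluster was led by the complement genes C1qa, C1qb and C1qc (22 and 41 cells) and one by the chemokine gene Ccl6 (21 and 32 cells). Fabp4 was at 0 UMIs in the C1q-led cells of both batches, which allows levels of up to 0.848 and 0.337, and at 5.34 (3.22 to 8.34) and 46.6 (41.7 to 51.9) in the Ccl6-led cells. Lpl was at 1.70 and 0.112 in the C1q-led and at 16.02 (12.1 to 20.8) and 10.4 (8.12 to 13.03) in the Ccl6-led cells, and Fabp5 at 1.41 and 3.15 against 8.71 and 21.4. Every macrophage UMI of Fabp4, and 57 of 63 and 73 of 74 macrophage UMIs of Lpl, thus came from the Ccl6-led cells. Plin2 was at 2.83 and 2.81 in the C1q-led and the Ccl6-led cells of Batch 1, and at 2.70 (1.73 to 4.01) and 8.95 (6.87 to 11.4) in Batch 2. Median depths were close, 1123 and 1320 UMIs in Batch 1 and 2177 and 1870 in Batch 2, and Sftpc was at 3.39 and 5.34 and at 5.96 and 10.8.

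The label of the Ccl6-led cells rests on part of the macrophage markers. In Batch 2 they had 6 of the 10 markers at 2-fold or more over all cells, with Mrc1 in 90.6% of them at 15.1 UMIs per 10000, while C1qa, C1qb, C1qc and Csf1r were at 0. In Batch 1 all 10 markers were 2-fold or more over all cells, with C1qa at 3.94 and Csf1r at 0.562. Marco, a scavenger receptor known from alveolar macrophages, was at 8.15 and 1.28 in the Ccl6-led cells, and at 7.35 and 0 in the C1q-led cells, in 4.55% of them in Batch 1.

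**Figure D4:**
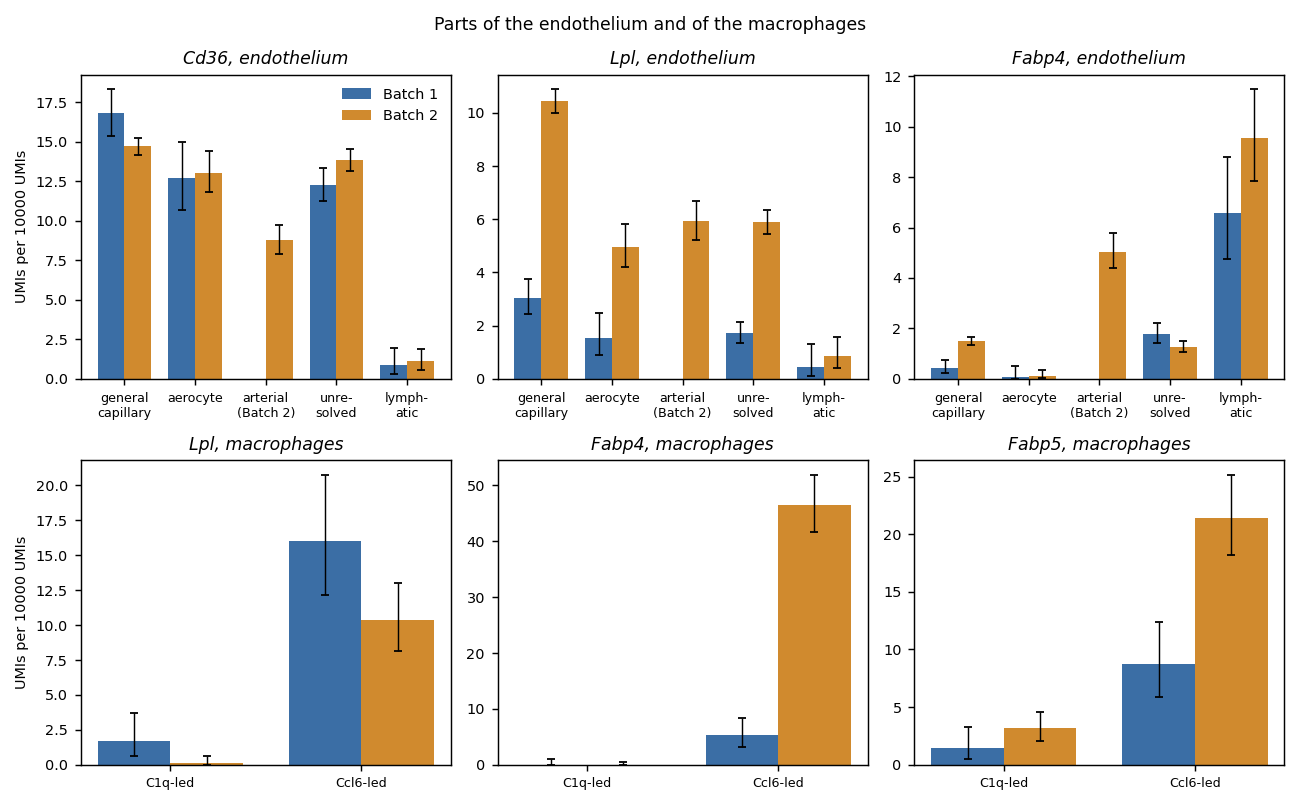
Levels of Cd36, Lpl and Fabp4 in parts of the endothelium and of Lpl, Fabp4 and Fabp5 in the C1q-led and Ccl6-led macrophages. Bars give UMIs per 10000 UMIs by batch with exact Poisson 95% intervals, and the arterial bars pool 2 clusters (144 cells) of Batch 2, the batch in which arterial cells were named. Fabp4 is at 0 in C1q-led macrophages of both batches, with error bars up to 1.04 and 0.415, and at 6.56 and 9.54 in lymphatic cells.

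Within the endothelium, general capillary cells (183 and 665) and aerocytes (74 and 166), the large capillary cells over the gas exchange surface, both had Cd36. Its level was 16.8 and 14.7 in general capillary cells and 12.7 and 13.04 in aerocytes, a log2 difference of 0.38 ± 0.50 (adjusted p = 1.00, edgeR). Lpl was at 3.05 (2.45 to 3.75) and 10.4 (9.98 to 10.9) in general capillary cells and at 1.55 (0.904 to 2.48) and 4.95 (4.19 to 5.80) in aerocytes, higher in the former in both batches, by 1.07 ± 0.49 (adjusted p = 1.00). In this comparison 0 of 8 members and 0.0227% of all genes, which is 2 of 8810, passed the threshold in edgeR, with 397 genes at an unadjusted p under 0.05 and 18 genes in DESeq2. Both calls were higher in aerocytes. Fabp4 in general capillary cells was at 0.441 and 1.50, but in Batch 2 its 290 UMIs came from 25 of 665 cells and 170 of them from 1 cell, and aerocytes had 1 and 4 UMIs. Its difference of 3.26 ± 1.08 (adjusted p = 0.878) passed only without the filter (adjusted p = 0.00183).

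Lymphatic endothelial cells, 19 and 26, were compared with the vascular parts named in both batches, which leaves out the arterial clusters of Batch 2. Fabp4 was at 6.56 (4.77 to 8.81) in Batch 1 and 9.54 (7.85 to 11.5) in Batch 2 and was found in 63.2% and 88.5% of the cells (26.3% and 34.6% after thinning). It exceeded the mean of general capillary, aerocyte and unresolved vascular cells by 3.82 ± 0.58 (log2, adjusted p = 5.88e-05, edgeR), 3.76 in Batch 1 and 3.78 in Batch 2. Cd36 was lower in lymphatic cells, at 0.895 and 1.117, by 3.87 ± 0.60 on the log2 scale (adjusted p = 7.14e-05), and Lpl, at 0.447 and 0.859 from 3 and 10 UMIs in 1 and 3 cells, by 2.78 ± 0.60 (adjusted p = 0.00270). Thus 1 member was higher and 2 were lower, where 9.04% of all genes passed (4.42% higher and 4.62% lower). Arterial cells were named in Batch 2 alone, in 2 clusters of unlike content. The one of 44 cells had Fabp4 at 11.3, Cd36 at 1.79 and Lpl at 0.0579, and the one of 100 cells Fabp4 at 0.686, Cd36 at 13.7 and Lpl at 10.002. The other vascular clusters of that batch, and the one of 100 cells, had Cd36 between 8.71 and 15.7, a description of clusters chosen after their values were seen. In Batch 1, an unresolved vascular cluster of 57 cells, also singled out afterwards, had Fabp4 at 5.08, Cd36 at 8.95 and Lpl at 1.36. High Fabp4 was thus not particular to lymphatic cells.

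Matrix fibroblasts of the subtypes MatrixFB-1 (701 and 1023 cells) and MatrixFB-2 (53 and 244 cells) did not differ past the threshold in any of the 8 members tested, where 0.976% of all genes passed (0.0681% higher and 0.908% lower in MatrixFB-1, 86 genes in all, and 688 at an unadjusted p under 0.05). Plin2 was at 2.23 and 1.11 in MatrixFB-1 and at 0.352 and 0.881 in MatrixFB-2, a log2 difference of 1.11 ± 0.49 (adjusted p = 0.558, edgeR). Lpl was at 0.171 and 0.288 against 0.791 and 0.466 (-1.19 ± 0.63, adjusted p = 0.670). The MatrixFB-2 levels of Batch 1 rest on 4 Plin2 UMIs and 9 Lpl UMIs. The MatrixFB-2 cells also differed between batches in their own markers. Dcn was at 21.4 in Batch 1 and 2.47 in Batch 2, and Mfap5 at 15.5 and 4.18. In each batch 9 of the 10 listed MatrixFB-2 markers were at least 2-fold over all cells. The Batch 2 cluster scored 1.6 for MatrixFB-2 and 1.1 for MatrixFB-1 markers. The fit took these cells as 1 class, and the part of this in the lack of member calls was not tested.

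Between the mice, 22 of the 36 levels of a member in a population had overlapping intervals in the 2 batches. Of the 14 that did not overlap, 8 were higher in Batch 2 and 6 in Batch 1, so the differences did not go 1 way. Scd1 and Fasn had overlapping intervals in all 4 populations, and Cd36 in all but AT2 cells. Fabp4 had none that overlapped. Plin2 was lower in Batch 2 in matrix fibroblasts, AT2 cells and vascular endothelium (0.515, 0.570 and 0.461 times its Batch 1 level) and higher in macrophages (1.94 times). With 1 mouse a batch no test between batches was possible, and mouse, capture and depth cannot be told apart.

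The wider pathways were followed through 7 lists of lipid genes, with the 9 members left out of every count. The gene named for a list and a population is the non-member with the highest mean CPM there, among list genes that passed as higher there than in at least 1 of the other 3 populations. In fatty acid synthesis, 11 of 22 genes passed the filter, and 7 were higher in AT2 cells than in matrix fibroblasts and 0 lower (13.3% and 13.7% of all genes), with a median log2 difference of 2.70 beside -0.05 over all genes tested. The same counts, 7 and 0 of 11, held against vascular endothelium (16.1% and 14.1% of all genes). Against macrophages 6 were higher in AT2 cells and 0 lower (13.1% and 10.7%). The gene named for AT2 cells is Scd2, another stearoyl-CoA desaturase, at 403 and 874 UMIs per 1000000 (CPM) beside 24.8 and 72.8 in matrix fibroblasts. For vascular endothelium it is Elovl5, an elongase of polyunsaturated fatty acids, at 153 and 181 CPM beside 61.1 and 137 in AT2 cells, which did not pass against vascular endothelium (adjusted p = 0.814, edgeR). Without the filter, 9 of 22 genes were higher in AT2 cells than in matrix fibroblasts and 2 lower, where 14% of all genes passed.

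In cholesterol synthesis, the 5 of 17 measured genes that passed the filter were all higher in AT2 cells than in matrix fibroblasts and than in vascular endothelium. Of all genes, 13.3% and 16.1% were higher in AT2 cells in these 2 comparisons. Without the filter, 12 of 17 were higher and 0 lower in both comparisons, where 14% and 15.3% of all genes passed. Against macrophages 2 of the 5 were higher in AT2 cells, beside 13.1% of all genes. Pmvk, phosphomevalonate kinase, was at 137 and 804 CPM in AT2 cells and passed against each of the other 3 populations. Idi1, an isomerase of the same pathway and the gene named for macrophages, was at 56.4 and 75.3 CPM there and at 69.6 and 91.7 CPM in AT2 cells, which did not pass against macrophages (adjusted p = 0.353, edgeR). In phosphatidylcholine synthesis, which makes the main lipid of surfactant, 3 of 8 tested genes were higher in AT2 cells than in matrix fibroblasts and 0 lower (13.3% and 13.7% of all genes), 4 and 0 against vascular endothelium (16.1% and 14.1%), and 2 and 1 against macrophages (13.1% and 10.7%). Lpcat1, an acyltransferase of surfactant phosphatidylcholine, was at 1494 and 1468 CPM in AT2 cells and at no more than 56.4 CPM in the other 3 populations. Lpcat2, a related enzyme, was at 240 and 50.2 CPM in macrophages and at 9.13 CPM or less elsewhere.

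Of 15 tested genes of uptake and carriage, 5 were higher in AT2 cells than in matrix fibroblasts and 3 lower, where 13.3% and 13.7% of all genes were. Between matrix fibroblasts and vascular endothelium, 4 of the 15 were higher in the former and 5 in the latter, beside 13% and 11.8% of all genes. Acsl4, an acyl-CoA synthetase, at 274 and 256 CPM in AT2 cells, and the caveolar gene Cav1, at 1552 and 1814 CPM in vascular endothelium, each passed against the other 3 populations. Vldlr, a lipoprotein receptor, was at 297 and 400 CPM in matrix fibroblasts and at 116 and 122 CPM in AT2 cells, a difference that did not pass (adjusted p = 0.0702, edgeR). The lipoprotein receptor gene Lrp1 was at 296 and 220 CPM in macrophages and at 218 and 214 CPM in matrix fibroblasts (adjusted p = 0.936). Of 9 tested genes of droplet storage and lipolysis, 3 were higher in AT2 cells than in matrix fibroblasts and 2 lower (13.3% and 13.7% of all genes). G0s2, an inhibitor of triglyceride lipase, was at 806 and 885 CPM in matrix fibroblasts and at 37.9 CPM or less in the other 3 populations, and passed against each of them (log2 differences of 5.40 to 6.92). Soat1, which esterifies cholesterol, was at 350 and 122 CPM in AT2 cells and at 169 and 113 CPM in macrophages, a difference that did not pass (adjusted p = 0.0912, edgeR). Hilpda, another lipase inhibitor, was at 272 and 127 CPM in vascular endothelium and at 0 and 56.5 CPM in macrophages (adjusted p = 0.0655), and passed against AT2 cells and matrix fibroblasts. Lipa, the lysosomal acid lipase, was at 169 and 138 CPM in macrophages and at 107 and 80.6 CPM in matrix fibroblasts (adjusted p = 0.391), and passed against AT2 cells and vascular endothelium.

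Among 10 tested transcription factors and regulators, 3 were higher in AT2 cells than in matrix fibroblasts and 3 lower (13.3% and 13.7% of all genes), while 6 were higher and 0 lower in AT2 cells than in vascular endothelium (16.1% and 14.1%). Cebpa was at 280 and 234 CPM in AT2 cells and at 6.85 and 10.3 in matrix fibroblasts, and Cebpb, of the same family, at 903 and 1010 CPM in macrophages. Of 11 tested genes of fatty acid oxidation, 2 were higher in AT2 cells than in matrix fibroblasts and 0 lower, a share near the 13.3% of all genes that were higher, with a median of 0.32 beside -0.05 over all genes. Acadl, an acyl-CoA dehydrogenase, was at 194 and 205 CPM in AT2 cells against 75.4 and 127 in matrix fibroblasts. Within the fibroblasts, and between general capillary cells and aerocytes, 0 list genes passed in edgeR, and 86 and 2 genes passed in all.

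Over the 24 class sums, the genes whose log2(CPM + 1) was most like that of a member are given as a description, since the sums share 2 libraries and the classes of a batch share its depth and free RNA. Candidates were 6823 genes with a mean of at least 20 CPM. For Scd1 they were Sftpd (Pearson's r = 0.79), Sftpc (0.78) and Napsa (0.78), 3 AT2 genes of surfactant and its processing. For Srebf1 the nearest was Srebf2 (0.79), the related factor of cholesterol synthesis genes, and for Fasn Etv5 (0.72), an AT2 transcription factor. Cd36 was nearest to Atp8a1 (0.75) and Car4 (0.70), a carbonic anhydrase of capillaries, and Lpl to Cttnbp2nl (0.87). Fabp5 was nearest to Man1a (0.72) and Soat1 (0.71), Fabp4 to Gdi2 (0.70), and Plin2 to Ddi2 (0.81). Pparg was nearest to Atp6v0d2 (0.83) and Ear2 (0.82), genes of myeloid cells, at a mean of 2.52 CPM of its own.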

How the data were processed

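Single cells of whole lung from 2 mice, 1 per batch, were measured. The authors aligned read 2 to mm10 with Bowtie2 2.2.7, keeping 1 position a read, and with Drop-seq tools counted the unique UMIs of each gene and cell over exons. The deposited counts were whole numbers with no normalization and no mitochondrial filter, and every deposited cell had at least 500 genes. In the work described here, cells with over 10% mt- UMIs were removed. Each batch was clustered in scanpy 1.11.5 (2000 variable genes without lipid genes, 40 components, 15 neighbours, Leiden resolution 2, with a second round at resolution 1 for endothelium and myeloid cells). A cluster was named when the mean log2 enrichment of a class's markers was at least 0.7 and 0.5 above the next class, with at least 3 markers detected, under 25% marked doublets and no other class with more markers among its 10 leading genes. The 525 and 1199 cells of other clusters stayed unnamed. Scrublet marked 13 and 118 cells as doublets, which were kept in the main values.

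The members, lists, naming rule and parts were chosen with earlier results of these data known, and leaving lipid genes out of clustering does not make the classes independent of genes that vary with them. Levels are ratios of sums, and thinning drew 600 UMIs per cell. Intervals are exact Poisson (levels) and Clopper-Pearson (shares) at 95%, a count of 0 allows 3 counts, and they cover counting error only. Counts summed per class and batch, for classes with at least 5 cells in each batch, were fitted in edgeR 4.0.16 (R 4.3.3; TMM, filterByExpr, batch as block, Benjamini-Hochberg), once with the populations whole (7201 genes) and once in parts (15 classes, 30 sums, 8810 genes). Differences within 1 batch were taken on log2 CPM (prior count 2). The sums of a batch come from the same mouse, which is the pairing, and their deviations from class means correlated by 0.0262 to 0.502 over 66 pairs (median 0.142). Counts were also simulated for AT2 against matrix fibroblasts, with a fixed dispersion, the same mean profile in all classes apart from the changed genes, and no batch effect. Of 200 changed genes, 132 passed the filter. Among these, 98.7% of those changed by 3 log2 units and 66.1% of those changed by 2 were found, and 4 of 116 calls were false. The real sums differ by class and batch, so these rates need not hold for them.

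Named genes were the 9 members, for each list and population the non-member with the highest mean CPM among genes higher there than in at least 1 other population, the 3 genes most alike each member, of which the nearest are printed, and tracers. Alternatives were no block, library size scaling, DESeq2 1.42.0, no filter, no marked doublets, a 5% mt- limit, each batch alone and, chosen after seeing the data, the 3 clusters that the naming rule left out for red cell markers or 1 monocyte marker. Coordinates are GENCODE's on GRCm38, the build of mm10, and promoters RefSeq's. Of the list genes, Fabp1 and Msmo1 had no row in either matrix, and Plin5 and Cpt1b none in Batch 1.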

Additional observations from a re-analysis of the deposited data

Results flagged for a closer look

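The 1940 cells of Batch 2 with over 10% mitochondrial UMIs, which no comparison used, held 5030373 UMIs and gave every member above the 0.00596 UMIs per 10000 that a count of 0 allows. Cd36 was at 5.65, Lpl at 2.88, Fabp5 at 2.26 and Scd1 at 1.37 UMIs per 10000 in these cells. Fabp4 was at 0.889, Fasn at 0.732, Plin2 at 0.638, Srebf1 at 0.578 and Pparg at 0.0656, the last from 33 UMIs. In all kept cells of Batch 2, Cd36 was at 6.10, Lpl at 2.96 and Pparg at 0.0318. The cells over the limit were not assigned to populations, Sftpc was at 230 UMIs per 10000 in them, and the part of their makeup in these levels was not tested. Only Batch 2 gave such values, since 1 cell of Batch 1 was over the limit.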

How the results depend on the processing

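The class sums within a batch are paired, since they come from the same mouse. Without the replicate block the calls fell from 86 to 24 for MatrixFB-1 against MatrixFB-2 and from 796 to 470 for lymphatic against vascular endothelium. They fell from 2 to 1 for general capillary against aerocyte endothelium. DESeq2 gave 131 and 18 calls for the first and the last of these. Without the filter there were 3001 calls in place of 1942 for AT2 against matrix fibroblasts, 3278 in place of 2177 for AT2 against vascular endothelium, 2679 in place of 1783 for matrix fibroblasts against vascular endothelium, 199 for MatrixFB-1 against MatrixFB-2 and 37 for general capillary against aerocyte endothelium. At the 5% mitochondrial limit, AT2 against macrophages gave 1084 calls in place of 1708, with 2062 cells left in Batch 2. No member's difference past the threshold changed sign under these settings or in either batch alone, but with the authors' listed cells Fabp4 in Batch 1 was lower in macrophages (0.416) than in vascular endothelium (1.38). The members lost 4 calls without the block and 3 in DESeq2, as given beside them, and the cause was not tested. Of 72 levels, leaving out marked doublets moved 0 beyond their interval, the clusters added after seeing the data 3 and means over cells 9. The 5% mitochondrial limit moved 12, a total without mt-, hemoglobin and surfactant protein genes 12, and thinning to 600 and 1000 UMIs 26 and 20. The share of cells with at least 2 UMIs lay outside the interval of the share with at least 1 in 62 of 72. That share can only be equal or lower, so this is no measure of moved levels. The authors' listed cells moved 6 of 36 levels. Low depth limits Pparg, all macrophage values (43 and 73 cells) and the synthesis genes outside AT2 cells.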

Other observations

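The Batch 1 clusters left unnamed held most cells that the authors' list calls macrophages, and with that list the Batch 1 levels of macrophages were 3.44 for Lpl, 1.42 for Fabp5, 0.831 for Cd36 and 0.416 for Fabp4 UMIs per 10000, against 8.88, 5.07, 1.69 and 2.68 in the macrophage class. The population with the highest level was the same for 8 of the 9 members in Batch 1 by either naming, and for Fabp4 changed from macrophages to vascular endothelium (1.38).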
